A study of Mus musculus with 23 samples.

Results

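Mitochondrial ribosomal protein genes are the 77 mouse genes in the count table whose symbol begins with Mrpl or Mrps followed by a digit, of 55573 gene IDs in all. The pattern matched 83 symbols. Of these, 5 pseudogenes were left out by their symbol, and Mrpl53 was left out because it had 20 or fewer counts in more than 19 of the 23 mice. Mrpl53 was listed at 0 in every mouse, and 88.0% of its exonic length is shared on the same strand with another annotated gene, Gm42688. Of the members, 48 are Mrpl genes and 29 are Mrps genes, all protein coding and spread over 17 chromosomes, with 11 on chromosome 11 and 8 on chromosome 17. All 77 passed the filter on low counts, the fewest counts of a member in a mouse being 47 (Mrps18c).

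The data are RNA sequencing counts of the quadriceps, a thigh muscle made mostly of fast fibers, from C57Bl6 mice aged 8 to 10 weeks. Corticosterone-treated mice had an implanted pellet that held 50 mg corticosterone with 50 mg cholesterol for 14 days, vehicle-treated mice carried a pellet of 100 mg cholesterol, and all were fasted for 5 h before tissue was taken. There were 6 vehicle-treated males, 6 corticosterone-treated males, 6 vehicle-treated females and 5 corticosterone-treated females, named below as in the labels (M1 or F1, for example). Corticosterone is the main glucocorticoid of mice, and the question is how the muscle of each sex responds to a sustained excess of it.

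Mitochondria keep their own ribosome, the mitoribosome, which translates only the messenger RNAs of the mitochondrial genome, all of them for subunits of the respiratory chain and ATP synthase. The RNA of the mitoribosome comes from the mitochondrial genome, while its proteins are encoded in the nucleus, made in the cytosol and imported. Some of these proteins descend from bacterial ribosomal proteins and others were gained by the mitochondrial particle, and muscle depends on them because contraction draws on oxidative ATP production. By the function known for their products, 50 members belong to the large subunit, which forms peptide bonds, and 26 to the small subunit, which decodes the messenger. Mrps30 and Mrps18a carry small subunit names but belong to the large subunit. Mrps36 was not classed, since its product has been assigned to the alpha-ketoglutarate dehydrogenase complex. Of the members, 45 have a bacterial counterpart, 30 are known only from mitochondria and 2 (Mrpl55 and Mrps36) were not classed.

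Each mouse had between 20904150 and 21984477 counts on genes, of which the members together took 0.293% to 0.422%. The unit of level is CPM, a gene's counts per 1000000 counts of its library, with TMM factors that correct for differences in composition between libraries. The skeletal muscle fiber list (Acta1, Ckm, Ttn, Neb, Actn2, Myh4, Tnnt3 and Mylpf) was detected in full, and its summed level ranged from 69887 CPM (F10) to 203789 CPM (M2). The hepatocyte list summed to 2453 CPM in M8, 2369 CPM in F10, 1442 CPM in M9 and 1434 CPM in M12, against a median of 107 CPM in vehicle-treated males and 126 CPM in vehicle-treated females. The slow fiber list (Myh7, Myl2, Myl3, Tnni1, Tnnt1, Tnnc1, Atp2a2 and Tpm3) summed to 59.0 to 6454 CPM among vehicle-treated females and 64.6 to 5934 CPM among vehicle-treated males. With corticosterone, 4 of 6 fibroblast genes fell in males and 2 in females, 4 of 5 erythrocyte genes rose in each sex, 2 of 8 fast fiber genes rose in males and 1 fell in females, 1 of 8 adipocyte genes rose in females, and 1 of 6 endothelial genes rose and 1 fell in males. No macrophage, Schwann cell, hepatocyte, slow fiber or general muscle fiber gene of these lists passed in either sex. By sign, all 8 slow fiber genes were lower in males (median log2FC -1.23). The summed slow fiber list nevertheless had a median of 118 CPM in vehicle-treated and 118 CPM in treated males, with 4509 and 5934 CPM in the vehicle-treated M3 and M5. All 7 tested hepatocyte genes were higher in both sexes (medians of 1.19 in males and 1.91 in females). All 7 macrophage genes were lower in males (-0.43) and higher in females (0.95), and the adipocyte list had a median of 2.13 in females. The values by mouse stand beside the results below, and the part of cell composition in the results was not tested beyond the fits given beside them.

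Between genes, levels were compared per kb of exonic length. This length is the union of all annotated exons of a gene, for example 739 bases for Mrps21 and 7326 bases for Mrpl33. How far the order of members follows annotated length, rather than the transcripts present in muscle, was not tested. In the 12 vehicle-treated mice the members spanned a 62.5-fold range, from 126 CPM per kb for Mrps21 to 2.02 CPM per kb for Mrpl33, with a median of 16.6 CPM per kb. Most were close together, with 41 members within 2-fold of that median. Mrps21, a small subunit protein with a bacterial counterpart, stood at 126 ± 14.7 CPM per kb (SD, n = 12 mice) and ranged from 101 to 152. The next members were Mrpl42 (70.9 ± 9.07), Mrpl14 (64.4 ± 12.2) and Mrpl12 (57.8 ± 10.5), the last of which forms the stalk that recruits translation factors. These 3 were not separated from the next lower member by more than their SD, whereas Mrps21 was. At the other end stood Mrps25 (3.77 ± 0.285), Mrps10 (3.38 ± 0.287), Mrps35 (2.28 ± 0.278) and Mrpl33 (2.02 ± 0.392), and the last 2 did not differ beyond their SD. Over the whole ladder the gap to the next member was larger than both SDs in 7 of 76 neighbouring pairs. The SDs are between mice, and comparisons with them do not use that all members were measured in the same mice. Of the genes of 3 paralogs related to one bacterial protein, S18, Mrps18a (17.2 ± 2.39 CPM per kb), of the large subunit, and Mrps18b (15.8 ± 1.55) did not differ beyond their SD, and Mrps18c (5.41 ± 1.04) was lower. In the split by origin only Mrps18c was counted as having a bacterial counterpart, and Mrps18a and Mrps18b as known only from mitochondria. Reads not assigned to a single gene were not counted, and 23.2% of the exonic length of Mrps18c is shared on the same strand with Gm43511, so its level per length is uncertain. Mrps34, with 37.0% shared with Nme3, and Mrps24, with 15.4% shared with Urgcp, are uncertain for the same reason. Members varied little between mice, the median coefficient of variation in vehicle-treated mice being 10.4% against 15.8% over all genes tested.

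**Figure D1:**
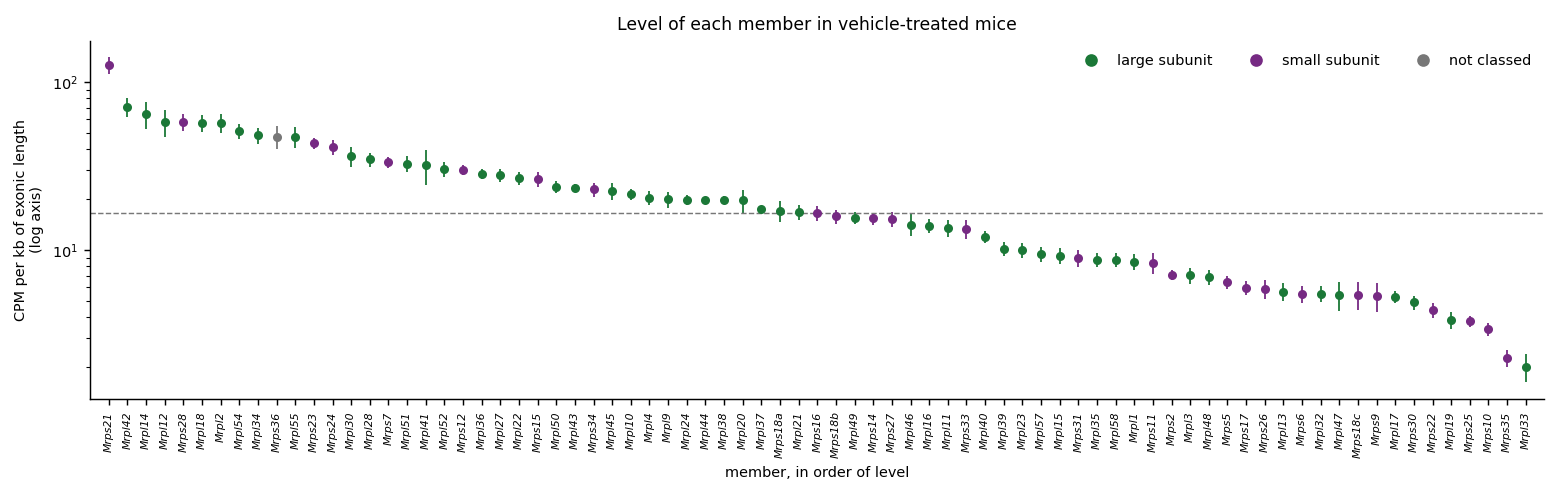
Level of each of the 77 members in vehicle-treated mice, as the mean CPM per kb of exonic length (log axis, points) with the SD over 12 mice (bars), colored by ribosomal subunit, with the median of members dashed. Mrps21 stands alone at 126 CPM per kb, and large and small subunit genes are mixed along the whole ladder down to Mrpl33 at 2.02 CPM per kb.

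In male mice corticosterone lowered 8 members and raised 0. Calls rest on the quasi-likelihood test of edgeR, adjusted by Benjamini-Hochberg over 13049 genes, with a threshold of 0.01, by which 13.1% of all genes tested were lower and 13.2% higher with corticosterone. The members' share of falls was thus close to that of all genes, and no member was among the genes that rose. At an unadjusted p under 0.05, 5 members were higher (23% of all genes), DESeq2 called 4 higher (15.7% of all genes) and limma-voom with sample quality weights called 5 (15.8%). The median log2 fold change (log2FC, corticosterone minus vehicle) of the members was -0.12, against -0.02 over all genes tested, and 59 of 77 lay below 0. Without M3 and M5, 2 vehicle-treated males described below, the median was -0.04 against -0.02 over all genes, and 46 lay below 0. The changes were small. The median size of the log2FC was 0.16 for members and 0.29 for all genes, and 4 members exceeded 0.5 in size, which is 5.19% of members against 28.1% of all genes.

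The 8 genes belong to both subunits, and their positions are given on GRCm38 from GENCODE M21. Of the large subunit 6 of 50 fell and of the small subunit 2 of 26, with a median log2FC of -0.09 and -0.14. By origin, 5 of 45 members with a bacterial counterpart and 3 of 30 known only from mitochondria fell. All 6 corticosterone-treated males lay below the mean of vehicle-treated males for each of the 8 genes. For 7 of them every corticosterone-treated male lay below every vehicle-treated male, as was the case for 11.1% of all genes tested. The opposite separation was found for Mrps24 and Mrpl38, against 10.8% of all genes, and neither passed the threshold on the adjusted p-value. Mrps24, of the small subunit, ranged from 49.9 to 74.1 CPM with vehicle and from 75.6 to 83.7 CPM with corticosterone (log2FC 0.37, SE 0.110, edgeR adjusted p = 0.0101).

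Mrpl3 (ENSMUSG00000032563, chr9:105053239-105079888, plus strand), the large subunit counterpart of a bacterial protein near the peptidyl transferase center, fell most. It ranged between 40.5 and 56.2 CPM with vehicle (median 50.01) and between 18.0 and 37.5 CPM with corticosterone (median 32.0). The groups did not overlap, and M8, with 18.0 CPM, was far below the other treated males. The log2FC was -0.69 (SE 0.153, n = 6 and 6 mice, edgeR adjusted p = 0.00126), from a mean of 49.2 ± 6.19 to 30.6 ± 6.64 CPM (SD).

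Mrpl48 (ENSMUSG00000030706, chr7:100545751-100608301, minus strand), a large subunit protein known only from mitochondria, had the smallest p-value. It ranged from 50.7 to 68.8 CPM with vehicle (median 54.4) and from 28.8 to 42.1 CPM with corticosterone (median 38.8). No treated male reached the lowest vehicle-treated male, and the log2FC was -0.63 (SE 0.110, edgeR adjusted p = 0.000135). Mrps28 (ENSMUSG00000040269, chr3:8802146-8923918, minus strand), of the small subunit, ranged from 36.6 to 51.1 CPM with vehicle (median 45.7) and from 20.2 to 34.1 CPM with corticosterone (median 31.0). The groups were again apart, with a log2FC of -0.61 (SE 0.127, edgeR adjusted p = 0.000636).

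Mrpl39 (ENSMUSG00000022889, chr16:84717576-84735742, minus strand), a large subunit protein that resembles a tRNA synthetase, was the only one of the 8 whose groups overlapped. It ranged from 21.3 to 28.9 CPM with vehicle (median 27.04) and from 8.96 to 22.7 CPM with corticosterone (median 18.96). The vehicle-treated male M9 (21.3 CPM) lay below the treated male M2 (22.7 CPM). The log2FC was -0.58 (SE 0.147, edgeR adjusted p = 0.00333).

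The other 4 fell by less. Mrps12 (ENSMUSG00000045948, chr7:28739641-28741820, minus strand), the small subunit protein at the decoding site, ranged from 29.6 to 35.5 CPM with vehicle (median 30.9) and from 20.8 to 27.3 CPM with corticosterone (median 23.6), with a log2FC of -0.42 (SE 0.0846, edgeR adjusted p = 0.000454). Mrpl36 (ENSMUSG00000021607, chr13:73328513-73332178, plus strand), a very short large subunit protein with a bacterial counterpart, ranged from 31.9 to 35.1 CPM with vehicle (median 33.5) and from 20.3 to 30.3 CPM with corticosterone (median 25.4). Its vehicle-treated males lay within a narrow range, and the log2FC was -0.40 (SE 0.0798, edgeR adjusted p = 0.000423). Mrpl51 and Mrpl16, both of the large subunit, had a log2FC of -0.39 (SE 0.109, edgeR adjusted p = 0.00655) and -0.37 (SE 0.0892, edgeR adjusted p = 0.00251). Mrpl51 (ENSMUSG00000030335, chr6:125191801-125196269, plus strand) is the most abundant of the 8 by CPM, with 126 to 169 CPM in vehicle-treated and 95.0 to 116 CPM in corticosterone-treated males. Mrpl16 (ENSMUSG00000024683, chr19:11770391-11774960, plus strand) ranged from 41.9 to 52.6 CPM with vehicle and from 27.8 to 39.8 CPM with corticosterone.

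**Figure D2:**
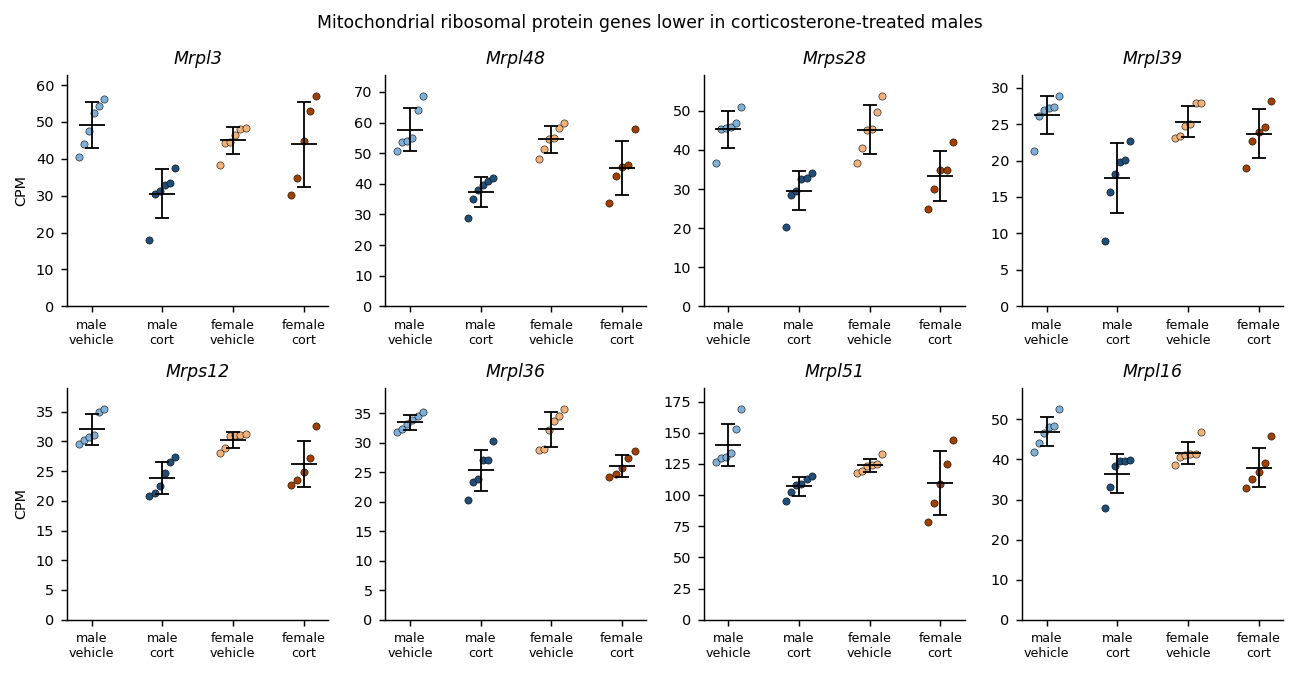
CPM in each mouse (points) of the 8 members that passed the threshold in males, by group, with the mean and SD (bars), 5 corticosterone-treated females and 6 mice in each other group. In males the groups are apart in all panels except Mrpl39, and in females they are apart for Mrpl36 only.

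The vehicle-treated males M3 and M5 held much of the slow fiber list, with a summed level of 4509 and 5934 CPM against 64.6 to 130 CPM in the other vehicle-treated males. The treated males M6 and M10 stood at 2629 and 1410 CPM, and none of the 8 slow fiber genes was at 0 in the mean of a group. M3 and M5 were also the highest vehicle-treated males for Mrpl48 (68.8 and 64.2 CPM) and Mrpl51 (169 and 153 CPM). Without these 2 mice 4 of the 8 members stayed past the threshold (Mrpl48, Mrps28, Mrps12 and Mrpl36), and with the slow fiber score as a covariate all 8 did. The other 4 kept most of their change without these mice, with a log2FC of -0.61 for Mrpl3 (edgeR adjusted p = 0.0102), -0.55 for Mrpl39 (0.0160), -0.31 for Mrpl16 (0.0195) and -0.28 for Mrpl51 (0.0598). Without M8 and F10, the mice with most hepatocyte transcripts, 7 of the 8 remained, and without M8 alone also 7, Mrpl51 being lost both times. In whole muscle, fewer cells of a type and less RNA per cell cannot be told apart.

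RefSeq promoter windows on GRCm38.p6, from 250 bases before to 50 bases after a gene's start, were given for 68 of the 77 members, 74 windows in all. They were searched on both strands for motifs of factors that are known to act on nuclear genes of mitochondrial proteins. GCGCATGCG (NRF1) was found in 9.46% of member windows, 3.40% of the windows of all genes tested and 1.75% of all windows. CCGGAAGT (ETS family, which includes the GABPA factor) was found in 16.2%, 7.63% and 3.89%, and AAGATGGCG (YY1) in 10.8%, 2.91% and 1.40%. In all, 26 of 68 members had at least 1 of these motifs and 0 had all of them. CACGTG (E-box) was found in 9.46% of member windows and 9.90% of those of genes tested. AGAACA, the core of the glucocorticoid receptor motif, was found in 12.2% and 12.6%. It was found in 0 of 10 windows of the members lowered in males, too few windows to read as a lack of the motif. Of those 8 members, 7 have a window and 5 of them hold an NRF1, ETS family or YY1 motif, shown here 5′ to 3′ on the gene's strand with the motif in capitals, since they are the members the male result rests on. Mrpl3, Mrpl48 and Mrpl51 hold the ETS family motif, 19, 35 and 90 bases before the start, Mrpl36 holds the YY1 motif 31 bases before it, and Mrpl39 holds the NRF1 motif on both strands, overlapping, from 125 bases before it. Mrpl48 has 4 windows, of which this is the only one with a motif, and the windows of Mrpl16 and Mrps12 hold none of them. All these starts are RefSeq starts. The windows of Mrpl48, Mrpl51, Mrpl36 and Mrpl39 lie inside the gene positions given above, downstream of the GENCODE start, that of Mrpl48 farthest. Whether these starts are used in muscle was not tested.
Mrpl3, chr9:105053018-105053317, plus strand: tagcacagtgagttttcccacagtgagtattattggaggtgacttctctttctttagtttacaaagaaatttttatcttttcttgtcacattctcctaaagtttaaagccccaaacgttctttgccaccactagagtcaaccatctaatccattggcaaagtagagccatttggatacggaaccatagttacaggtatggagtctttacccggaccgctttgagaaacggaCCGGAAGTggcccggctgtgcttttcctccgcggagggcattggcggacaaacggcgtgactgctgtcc
Mrpl48, chr7:100583081-100583380, minus strand: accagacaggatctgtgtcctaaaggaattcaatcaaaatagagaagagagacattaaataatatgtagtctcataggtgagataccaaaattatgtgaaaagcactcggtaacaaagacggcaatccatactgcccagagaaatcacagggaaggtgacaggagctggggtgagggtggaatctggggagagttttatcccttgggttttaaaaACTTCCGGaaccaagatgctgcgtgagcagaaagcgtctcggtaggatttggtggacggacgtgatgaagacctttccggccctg
Mrpl51, chr6:125191950-125192249, plus strand: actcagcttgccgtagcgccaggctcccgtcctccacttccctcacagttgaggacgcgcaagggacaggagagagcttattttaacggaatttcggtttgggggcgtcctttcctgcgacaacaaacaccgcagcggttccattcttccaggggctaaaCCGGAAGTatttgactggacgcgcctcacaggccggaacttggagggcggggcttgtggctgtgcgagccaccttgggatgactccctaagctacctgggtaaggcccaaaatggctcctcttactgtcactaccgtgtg
Mrpl36, chr13:73330759-73331058, plus strand: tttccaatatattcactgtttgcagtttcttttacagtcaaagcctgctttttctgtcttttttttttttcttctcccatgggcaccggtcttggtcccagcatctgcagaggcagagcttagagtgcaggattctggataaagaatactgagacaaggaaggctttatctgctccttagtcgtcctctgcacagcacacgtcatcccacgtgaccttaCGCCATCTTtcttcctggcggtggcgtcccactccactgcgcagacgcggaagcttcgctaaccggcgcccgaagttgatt
Mrpl39, chr16:84735195-84735494, minus strand: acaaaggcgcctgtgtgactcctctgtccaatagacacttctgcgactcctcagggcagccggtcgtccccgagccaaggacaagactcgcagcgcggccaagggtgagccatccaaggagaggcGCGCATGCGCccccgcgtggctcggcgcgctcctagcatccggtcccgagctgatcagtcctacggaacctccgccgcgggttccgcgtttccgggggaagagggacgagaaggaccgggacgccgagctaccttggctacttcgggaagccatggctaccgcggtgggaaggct

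Of the members, 18 have a protein coding gene on the other strand that starts within 1000 bases upstream, so that both genes share the stretch between their starts. For Mrps12 this neighbour is Sars2, the mitochondrial seryl-tRNA synthetase, and both fell in males. Sars2 ranged from 12.2 to 14.4 CPM in vehicle-treated and from 5.12 to 10.1 CPM in corticosterone-treated males, with no overlap and a log2FC of -0.61 (SE 0.138, edgeR adjusted p = 0.00138) beside -0.42 for Mrps12. Their starts are 172 bases apart in GENCODE and 147 in RefSeq. The window of Mrps12 is shown with the stretch between the RefSeq starts in capitals, since it is the only shared stretch whose 2 genes both passed the threshold.
Mrps12, chr7:28741772-28742071, minus strand: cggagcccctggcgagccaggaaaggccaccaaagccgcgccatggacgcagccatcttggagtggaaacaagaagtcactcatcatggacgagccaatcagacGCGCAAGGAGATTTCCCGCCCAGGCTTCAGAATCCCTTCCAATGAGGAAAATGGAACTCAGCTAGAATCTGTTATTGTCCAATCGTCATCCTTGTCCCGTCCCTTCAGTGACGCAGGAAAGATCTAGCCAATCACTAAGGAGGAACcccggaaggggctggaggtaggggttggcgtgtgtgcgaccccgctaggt
In all, 7 of 16 tested pairs had the same sign in males. Of the 16 neighbours, 5 rose in males (Cyb5rl, Fau, Zfp189, Apba3 and Zfp661) and 1 fell (Sars2), while the members beside those that rose had a log2FC between -0.20 and 0.07 and did not pass. Zfp189 had a log2FC of 0.90 (SE 0.144) beside 0.07 (SE 0.0636) for Mrpl50, and Cyb5rl 0.76 (SE 0.106) beside -0.01 (SE 0.0915) for Mrpl37. Ncapd2, the neighbour of Mrpl51, had a log2FC of -0.24 (SE 0.121, edgeR adjusted p = 0.119).

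In female mice 0 members passed in either direction, where 7.4% of all genes tested were higher and 6.0% lower with corticosterone (edgeR, threshold 0.01). At an unadjusted p under 0.05, 3 members were higher (21.8% of all genes) and 10 lower (16.8%). DESeq2 called 3 lower (Mrpl36, Mrps10 and Mrps28, against 8.62% of all genes), and limma-voom called 3 lower (Mrpl36, Mrps16 and Mrps28, against 7.89%), both with 0 higher. The median log2FC of members was -0.03 against 0.04 over all genes, and the median size was 0.10 against 0.23. The former was -0.11 without F6 and F8 and 0.07 with the adipocyte score as a covariate, so that its sign was not stable. Treated and vehicle-treated females did not overlap for 2 members, both lower (4.34% of all genes), and for 0 members higher (3.38%).

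These 2 were Mrpl36 and Mrps10. Mrpl36 was 25.7, 28.6, 24.1, 27.4 and 24.7 CPM in the treated females F2, F4, F6, F8 and F10 and 28.7 to 35.7 CPM in vehicle-treated females (median 32.9). All 5 treated females were below every vehicle-treated female, F4 only just, and the log2FC of -0.31 (SE 0.0838, edgeR adjusted p = 0.0103) narrowly missed the threshold. Mrps10, a small subunit protein with a bacterial counterpart, was 21.5, 23.7, 20.6, 24.0 and 21.1 CPM in the same mice and 24.4 to 29.0 CPM with vehicle (median 26.0), with a log2FC of -0.25 (SE 0.0718, edgeR adjusted p = 0.0146). In males the groups of Mrps10 overlapped and the log2FC was -0.13 (SE 0.0682, edgeR adjusted p = 0.149). Mrps28 was 34.9, 34.8, 24.97, 41.9 and 30.0 CPM in treated females and 36.7 to 53.9 CPM with vehicle (median 45.3). F8 alone lay within the vehicle range, and the log2FC was -0.44 (SE 0.133, edgeR adjusted p = 0.0178).

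The 8 members that fell in males all had a log2FC below 0 in females, and 4 of them reached an unadjusted p under 0.05 there. Over all members, 41 were below 0 in both sexes, 15 above 0 in both, 18 below in males and above in females, and 3 the other way round. The 2 contrasts share no mice. Mrpl3 and Mrpl39, which were among the 4 largest falls in males, had a log2FC of -0.03 (SE 0.160) and -0.10 (SE 0.153) in females. Mrpl3 was 34.8, 53.1, 30.1, 57.1 and 44.8 CPM in treated females and 38.3 to 48.3 CPM with vehicle, so that the treated females lay on both sides of the vehicle range.

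**Figure D3:**
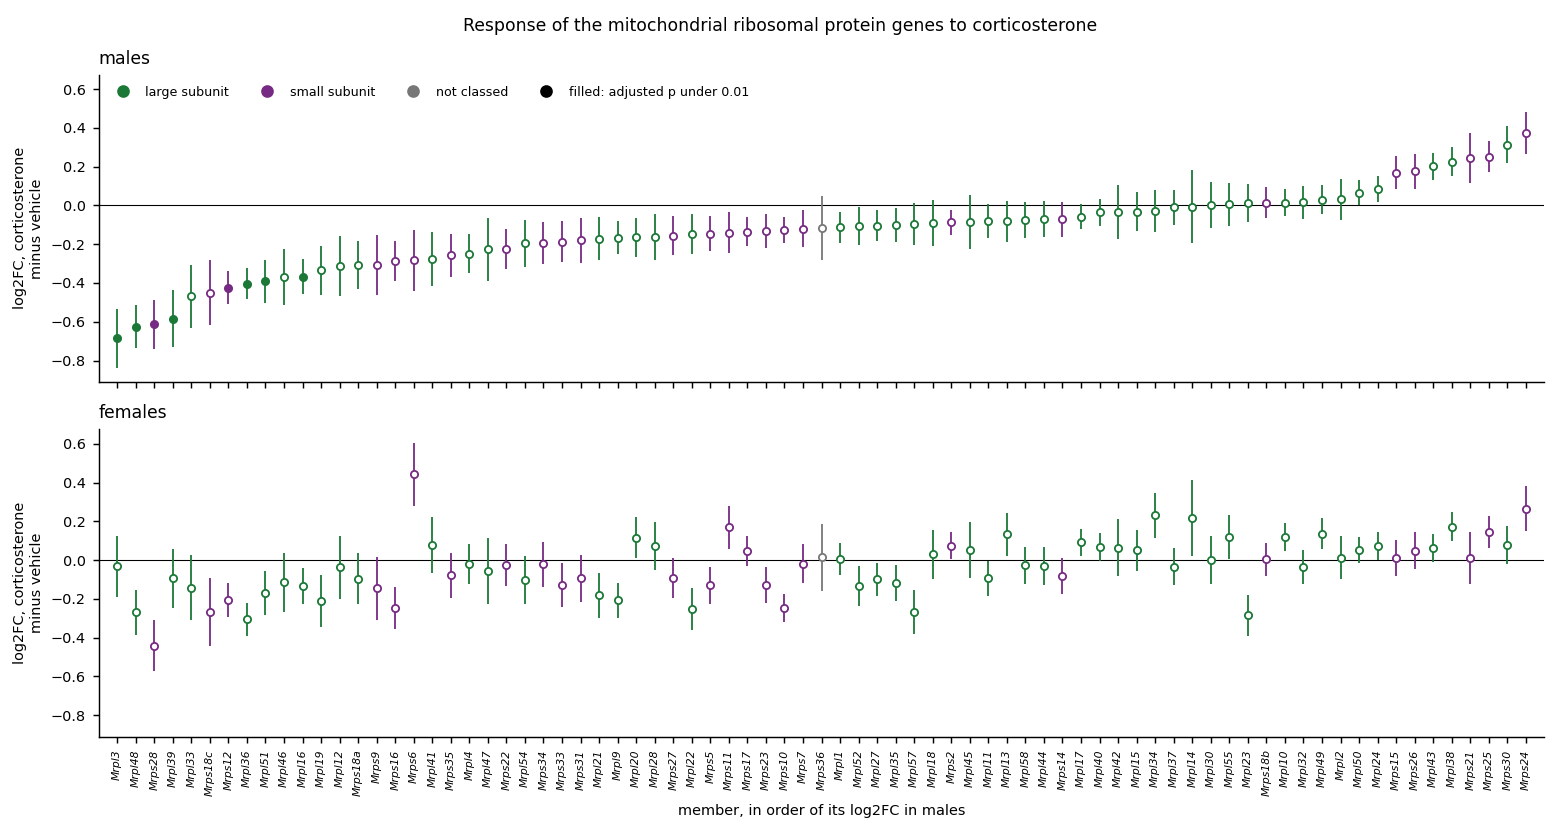
The log2FC (corticosterone minus vehicle, points) with its SE (bars) of the 77 members in males (top) and females (bottom), in the order of the log2FC in males, colored by ribosomal subunit and filled where the adjusted p-value is under 0.01. In males 8 points are filled, all below 0, and in females none is, with Mrps6 the highest at 0.44.

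The sexes' responses were compared by their interaction term, which passed for 0 members in either direction (0.69% of all genes), and 4 members had an unadjusted p under 0.05 (32.1% of all genes). The smallest p-values were those of Mrps6, with a difference in log2FC of -0.72 (males minus females, SE 0.225, edgeR adjusted p = 0.0402), and Mrpl3, with -0.65 (SE 0.221, edgeR adjusted p = 0.0532). The falls seen in males alone are thus not shown to be particular to males. Between the vehicle groups 0 members differed (0.958% of all genes), and 6 had an unadjusted p under 0.05 (13.2% of all genes). Here 64 of 77 members were higher in males by sign, with a median log2FC (males minus females) of 0.09 against 0.00 for all genes. Without M3 and M5, 42 of 77 were higher and the median was 0.02. Mrpl1, with 34.5 to 43.3 CPM in vehicle-treated males and 29.0 to 36.9 CPM in vehicle-treated females (log2FC 0.19, SE 0.0790, edgeR adjusted p = 0.254), and Mrpl50 (log2FC 0.15, SE 0.0636, edgeR adjusted p = 0.274) had the smallest p-values.

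Between the corticosterone groups 1 member was lower in males (14% of all genes) and 0 were higher (9.31%). At an unadjusted p under 0.05, 8 were higher in males (20.7%), and DESeq2 called 2 higher (13.2%) and limma-voom 3 (10.6%). The member that passed was Mrps6 (ENSMUSG00000039680, chr16:92058270-92112227, plus strand), a small subunit protein with a bacterial counterpart. It was 11.7, 7.18, 14.4, 11.1 and 13.5 CPM in the treated females F2, F4, F6, F8 and F10, and 5.18 to 9.09 CPM in treated males (median 6.46). Only F4 lay within the range of treated males, and the log2FC (males minus females) was -0.76 (SE 0.163, edgeR adjusted p = 0.00127). The call was lost with only these 2 groups in the fit and without F6 and F8, the adjusted p ranging from 0.000122 to 0.0157 over all alternatives, DESeq2 and limma-voom included. In vehicle-treated mice Mrps6 stood at 8.33 ± 1.16 CPM in males and 8.54 ± 0.871 CPM in females (SD, n = 6 each). Its log2FC with corticosterone was 0.44 in females (SE 0.162, edgeR adjusted p = 0.0470) and -0.28 in males (SE 0.157, edgeR adjusted p = 0.157).

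Of the exonic length of Mrps6, 19.9% is shared on the same strand with other genes, among them Slc5a3, the myo-inositol transporter. Slc5a3 was 7.87, 5.01, 14.5, 1.23 and 10.8 CPM in the 5 treated females, in the order above, and 1.37 to 4.44 CPM in vehicle-treated females. Its log2FC was 1.38 in females (SE 0.412, edgeR adjusted p = 0.0171) and -0.56 in males (SE 0.419, edgeR adjusted p = 0.298), neither past the threshold. Between the corticosterone groups Slc5a3 did pass, in the same direction as Mrps6 (log2FC, males minus females, -2.37, SE 0.430, edgeR adjusted p = 0.000413). Whether the shared sequence has a part in the call of Mrps6 was not tested. F6, F10 and F2 were the highest treated females for both genes and also for the adipocyte score, the mean log2 CPM of Adipoq, Plin1, Fabp4, Cidec, Lep, Cfd, Retn and Car3 (9.95, 8.80 and 9.03). F8 had the lowest adipocyte score (3.92) with 11.1 CPM of Mrps6. With the adipocyte score as a covariate Mrps6 stayed past the threshold between the corticosterone groups, as 1 of 2 members.

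None of the 3 Mrps18 paralogs passed in either sex, and treated and vehicle-treated mice overlapped for each. Mrps18c had a log2FC of -0.45 in males (SE 0.168, edgeR adjusted p = 0.0375) and -0.27 in females (SE 0.175, edgeR adjusted p = 0.272), and Mrps18a of -0.31 (SE 0.124, edgeR adjusted p = 0.0525) and -0.10 (SE 0.130, edgeR adjusted p = 0.627). Mrps18b had nearly the same level in all 4 groups, with 16.5 and 16.6 CPM per kb in vehicle-treated and treated males and 15.2 in both groups of females.

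Seen as a set, the members differed widely between single mice of a group. For each mouse the median over members of the log2 difference from the mean of same-sex vehicle-treated mice was taken. In treated females it was 0.29 in F8, where 73 of 77 members lay above the vehicle mean, -0.35 in F6, where 68 lay below, and -0.07, -0.08 and -0.08 in F2, F4 and F10. The summed level of the members was 4386 CPM in F8 and 2693 CPM in F6, the highest and the lowest of all 23 mice. F8 had the lowest and F6 the highest adipocyte score of the treated females, and the summed adipocyte list was 710 CPM in F8 and 10245 CPM in F6. Without F8, 8 members passed as lower in females, of which 3 (Mrpl36, Mrps28 and Mrps12) are among the 8 of males. The share of all genes that passed in that fit is not given here, so the count is not read as a result about the members. Without F6 and F8 together, 0 passed. The part of adipocytes in these levels was not tested, beyond the covariate, with which 0 members passed in females.

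In treated males the median difference ranged from -0.28 (M8) to -0.02 (M4) and was below 0 in all 6. In vehicle-treated males it was 0.17 in M3 and 0.14 in M5, the mice with most slow fiber transcripts, 0.00 in M11 and -0.14 to -0.08 in M1, M7 and M9, so that the groups overlapped. The relation of slow fiber level to the members was not tested beyond the fits given above. Among treated males, M6 and M10, with slow fiber scores of 8.32 and 7.25, had a median difference of -0.04 and -0.03. M8, with the lowest score (0.31), had -0.28, and M4, with a score of 2.56, had -0.02. The vehicle-treated females F3 and F5, with slow fiber scores of 9.50 and 8.88, had a median difference of -0.11 and 0.02. The spread of log2 CPM between mice of a group, as the median SD over members, was 0.26 in treated females against 0.12 in vehicle-treated females, and 0.14 and 0.16 in treated and vehicle-treated males. Over all genes the 4 values were 0.28, 0.21, 0.21 and 0.20. The balance of the subunits differed little, with a ratio of summed large to summed small subunit CPM of 2.65 ± 0.0576 in vehicle-treated and 2.56 ± 0.0646 in treated males (SD, n = 6 each), and 2.59 ± 0.0301 and 2.63 ± 0.0778 in vehicle-treated and treated females.

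**Figure D4:**
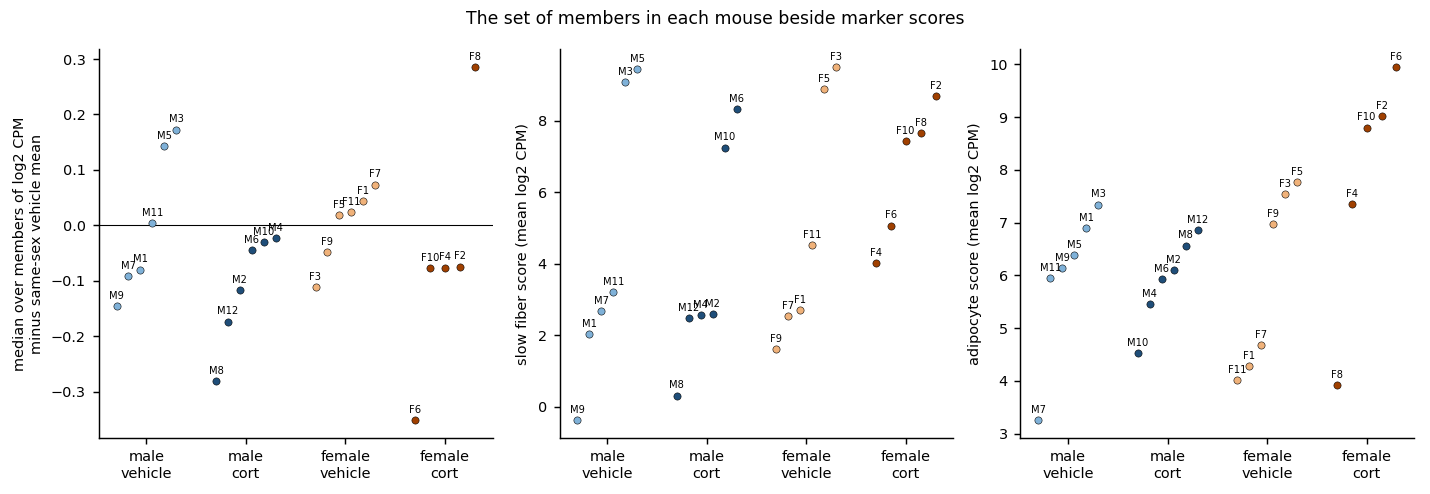
Left, median over the 77 members of log2 CPM minus the mean of same-sex vehicle-treated mice, for each mouse (points) by group; middle and right, the slow fiber and adipocyte marker scores (mean log2 CPM) of the same mice. F8 (0.29) and F6 (-0.35) stand at the ends on the left and at opposite ends of the treated females on the right, and M3 and M5 are high on the left and in the middle.

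The genes around the mitoribosome were read from the same fit. Of 5 mitoribosomal subunits with other names, 1 passed in males, Dap3, a small subunit GTP-binding protein. It lay between 62.7 and 69.4 CPM with corticosterone, above the highest vehicle-treated male (59.5 CPM, log2FC 0.28, SE 0.0685, edgeR adjusted p = 0.00269), and 0 in females. Of 25 genes for assembly of the mitoribosome and modification of its RNA, 3 rose and 3 fell in males, and 1 fell in females. Mtg1, a GTPase in the assembly of the large subunit, fell from 26.0 to 32.4 CPM with vehicle to 7.55 to 19.7 CPM with corticosterone in males (log2FC -0.98, SE 0.165, edgeR adjusted p = 8.31e-05). Rbfa, which matures the small subunit, fell in both sexes (log2FC -0.34 in males and -0.38 in females, edgeR adjusted p = 0.000383 and 0.000572), and Ngrn, which acts on the large subunit's RNA, rose in males (log2FC 0.33, edgeR adjusted p = 0.00120).

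Of 15 mitochondrial translation factors 7 fell and 0 rose in males, with a median log2FC of -0.34, and 2 fell in females, with a median of -0.14. Guf1, a ribosome-dependent GTPase of elongation, fell from 23.3 to 28.9 CPM to 13.4 to 19.6 CPM in males (log2FC -0.61, edgeR adjusted p = 1.33e-05) and from 23.3 to 27.1 CPM to 15.8 to 21.1 CPM in females (log2FC -0.48, edgeR adjusted p = 0.000818). Taco1, the translational activator of the mitochondrial Cox1 messenger, fell in males (log2FC -0.75, edgeR adjusted p = 0.000550), as did the release factor Mtrf1l (log2FC -0.44, edgeR adjusted p = 0.00118). The initiation factor Mtif2 fell in females (log2FC -0.32, edgeR adjusted p = 0.00581), a call that was lost in 10 of 34 alternatives, with a log2FC of -0.25 (edgeR adjusted p = 0.0426) with the adipocyte score as a covariate. Without M3 and M5 the count in males was 3 and the median -0.28, and Mtrf1l had a log2FC of -0.38 (edgeR adjusted p = 0.0116).

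Of 20 genes for mitochondrial aminoacyl-tRNA synthesis 1 rose and 4 fell in males, and 2 rose and 1 fell in females. Gatb, a subunit of the glutaminyl-tRNA amidotransferase, rose in both sexes (log2FC 0.32 and 0.53, edgeR adjusted p = 0.00329 and 0.000180), while Qrsl1, another subunit of the same enzyme, fell in males (log2FC -0.62, edgeR adjusted p = 0.00137). The arginyl-tRNA synthetase Rars2 fell in both (log2FC -0.42 and -0.32, edgeR adjusted p = 0.000401 and 0.00973), though the female call was lost in 27 alternatives. Of 14 genes for mitochondrial transcription and its nuclear regulators 3 rose and 2 fell in males and 0 passed in females. Polrmt, the mitochondrial RNA polymerase, the coactivator Pprc1 and the factor Nrf1 rose in males by a log2FC of 0.39, 0.46 and 0.38 (edgeR adjusted p = 0.000551, 0.00199 and 0.00216). Other genes of this list had lower means in treated than in vehicle-treated males, among them Esrra (95.3 against 149.5 CPM) and Ppargc1b (3.28 against 6.34 CPM). The summed list had a mean of 383 CPM in treated and 428 CPM in vehicle-treated males. Without M3 and M5, 2 of the 14 rose and 0 fell in males. In that fit the calls of Pprc1 (edgeR adjusted p = 0.0177) and Qrsl1 (0.0173) were lost. Of 11 messengers of the mitochondrial genome tested, all were below 0 in males by sign, with a median log2FC of -0.30 (0.06 in females). The male median was -0.16 without M3 and M5 and -0.19 without M8 and F10. Mean levels in vehicle-treated males were low for mt-Nd3 (2.24 CPM), mt-Co2 (6.13), mt-Atp6 (3.22) and mt-Nd6 (10.9), against 33059 CPM for mt-Co1. The 1 messenger that passed in males was mt-Co3, also a gene with few counts here. Only reads assigned uniquely were counted, so a read that also matched a nuclear copy of the gene would be missing from its level. It stood at 4.21 to 94.1 CPM with vehicle and 2.43 to 6.15 CPM with corticosterone. This rests on M7 (94.1 CPM), without which its adjusted p was 0.0290 with edgeR.

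The cytosolic ribosome and the respiratory chain give the scale for these counts. Of 76 cytosolic ribosomal protein genes 27 rose and 0 fell in males, with a median log2FC of 0.31, so that the genes of the cytosolic and the mitochondrial ribosome had medians of opposite sign. Rps2 and Rpl7a rose by a log2FC of 0.74 and 0.53 (edgeR adjusted p = 0.000107 and 0.000144). In females 0 of 76 passed, with a median of 0.09. Of 76 nuclear genes for respiratory chain and ATP synthase subunits, whose partners the mitoribosome makes, 0 rose and 4 fell in males, with a median of -0.33. Cox7a2, Atp5j and Cox7a1 fell by 0.77, 0.69 and 0.97 on the log2 scale (edgeR adjusted p = 0.00124, 0.00167 and 0.00248). In females 1 rose, Cox8a (log2FC 1.09, edgeR adjusted p = 0.00763), with a median of -0.10. Its call was lost in 13 of 34 alternatives, and with the adipocyte score as a covariate its log2FC was 0.53 (edgeR adjusted p = 0.0605). Without M3 and M5, 46 cytosolic ribosomal protein genes were higher in males, with a median of 0.46, and 0 respiratory chain genes were lower, with a median of -0.13. In the same fit the median of the mitochondrial ribosomal protein genes was -0.04, against -0.02 over all genes.

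**Figure D5:**
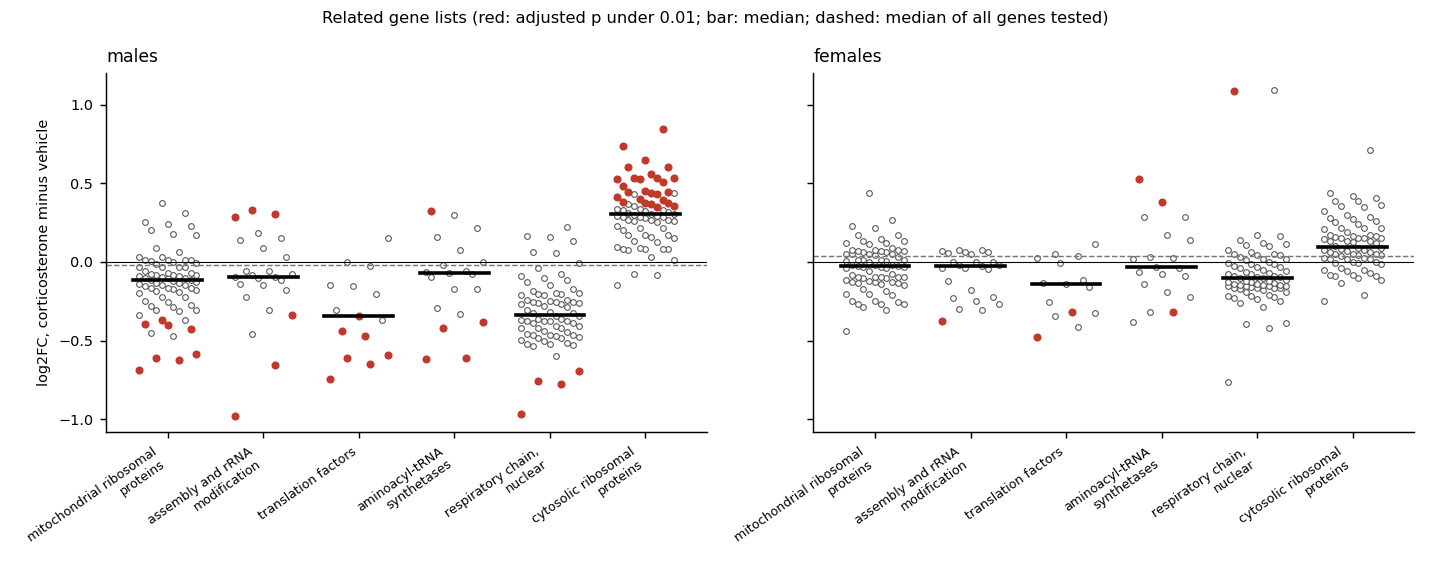
The log2FC (corticosterone minus vehicle) of each tested gene (points) in 6 lists, in males (left) and females (right), red where the adjusted p-value is under 0.01, with the median of the list (bar) and of all genes tested (dashed). In males the mitochondrial ribosomal proteins center at -0.12, between the cytosolic ribosomal proteins at 0.31 and the respiratory chain genes and translation factors at -0.33 and -0.34.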

How the data were processed

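Counts per gene and mouse were analysed as the authors deposited them: whole read pairs counted on genes with HTSeq 0.12.4, by strand, after alignment to mm10 with STAR 2.7.3a, without normalization. Gene names, positions and exonic lengths came from GENCODE M21 (GRCm38), which matched 55480 of the 55573 gene IDs. Summary entries for read pairs that were not counted for any gene, whatever the reason (10.7% to 15.3%), were left out. The mRNA was enriched and libraries were stranded.

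Genes with over 20 median-of-ratios normalized counts in at least 4 mice of a group were tested (13049), in R 4.3.3, with edgeR 4.0.16 (quasi-likelihood test, TMM, 1 mean for each of 4 groups, normalization factors 0.832 to 1.21) and Benjamini-Hochberg adjustment over all 13049, with 0.01 as the threshold. The p-values measure the spread between mice. DESeq2 1.42.0 and limma 3.58.1 (voom with quality weights), other filters and scalings, marker score covariates and fits without single mice were alternatives. No pair of replicates was alike within sampling noise (lowest chi-square per degree of freedom 15.0). The fit was tested on simulated data with known changes. Of changes of 0.5 on the log2 scale, 17.8% were recovered in males and 18.9% in females, and of changes of 1.5, 82.3% and 91.8%. False calls were 2.65% of calls in males and 0.901% in females. Changes as small as those of most members would thus often be missed. Promoter windows came from RefSeq (GRCm38.p6), and motifs were matched by exact letters on both strands.

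Genes named are, by rule, the members past the threshold or with the smallest p-values, the 4 highest and 4 lowest in level, the Mrps18 paralogs, and up to 3 genes per related list and sex, some of which are not reported here. The genes beside them, Mrps24, Mrpl38, Slc5a3, Esrra, Ppargc1b, the neighbours and the mitochondrial messengers other than mt-Co3 were chosen after their values were seen. Kinases and other genes that only share the Rps or Atp5 prefix were taken out of the lists by name. Members, lists and motifs were chosen with earlier results of these data known. Protein sequences were not used here.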

Additional observations from a re-analysis of the deposited data

Results flagged for a closer look

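Within a group, the value of a mouse stood far from the others by Dixon's test at 95% in 15 of 196 tests, where chance flags about 1 in 20. Among members, Mrpl3 was low in the treated male M8 (18.0 CPM, against 30.6 to 37.5 in the others), Mrpl39 low in the vehicle-treated male M9 (21.3 CPM), Mrpl16 high in the vehicle-treated female F1 (46.9 CPM) and Mrps35 low in the vehicle-treated female F9 (17.4 CPM). M8 was also low for Rbfa (17.7 CPM), Rars2 (10.02 CPM) and Qrsl1 (10.6 CPM), high for Polrmt (38.4 CPM) and Pprc1 (23.1 CPM), and had the lowest ratio of summed large to small subunit CPM (2.43). M8 is the treated male with most hepatocyte transcripts and fewest slow fiber transcripts (58.1 CPM), and the part of either in these values was not tested. The vehicle-treated male M5 was high for Mtg1 (32.4 CPM) and Nrf1 (11.97 CPM). Single values also stood apart for mt-Co3 in M7 (94.1 CPM), Rps2 in M4 (1122 CPM) and Cox8a in the vehicle-treated female F5 (82.6 CPM).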

How the results depend on the processing

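The 8 falls in males kept their direction in all alternatives. Their count was 13 at an adjusted p under 0.05, 0 with a log2FC beyond 1 in size, 4 without M3 and M5 and 7 to 8 without each mouse. Mrpl51 lost its call in 9 of 34 alternatives, Mrpl16 and Mrpl39 in 2 each and Mrpl3 in 1. Members higher in males, 0 in the main test, were 4 with DESeq2, 5 with limma-voom, 3 with only the 2 groups, 2 with either score as a covariate, 2 without M3 and M5, 4 without F6 and F8, 5 at an adjusted p under 0.05 and 0 to 5 without each mouse, 5 without F8 and 3 without F3. Members lower in females were 3 with DESeq2 and limma-voom, 1 with the median of ratios or filterByExpr, 4 at 0.05, and 0 to 8 without each mouse (8 without F8, 2 without F3). Members higher in females were 1 at 0.05 and 0 to 1 without each mouse (Mrps6, without F4). For the interaction, 1 was lower at 0.05 and 0 to 1 without each mouse (Mrps6, without F4). Between the corticosterone groups, members higher in males were 2 with DESeq2 and the median of ratios, 3 with limma-voom, 1 with the slow fiber score or without F6 and F8, 6 at 0.05 and 0 to 7 without each mouse (7 without F8, 2 without M2). Members lower were 2 with DESeq2 or the adipocyte score, 0 with only the 2 groups, without F6 and F8 or with a log2FC beyond 1, 3 at 0.05 and 1 to 2 without each mouse. For settings whose share of all genes is not given above, these counts are not read as results about the members. The spread is estimated over all mice in a fit, so leaving out a female can also move calls in males. The cause of these moves was not tested. The median log2FC of members ranged from -0.15 to -0.09 in males and from -0.15 to 0.02 in females without each mouse. The slow fiber covariate and the fits without M3 and M5 or F6 and F8 were chosen after seeing the data.

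Vehicle and corticosterone mice of a sex share no replicate number. Numbers shared between the sexes were not taken as pairs, since nothing in the labels ties them and not every correlation of deviations was over 0.1 (7 of 11, from -0.38 to 0.48, the negative ones all among treated mice). With the replicate block 1 member (Mrps6) was lower in treated males than treated females, and 0 passed for the interaction or between the vehicle groups, as without it. With 5 to 6 mice a group, a change that missed the threshold is not shown to be absent.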
